A study of Mus musculus with 10 samples.

Results

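Elastin (Eln) and 8 genes whose proteins form or organize the microfibrils around it were followed in bulk RNA-sequencing of mouse lung at P14: the fibrillins Fbn1 and Fbn2, the microfibril associated proteins Mfap2, Mfap4 and Mfap5, the fibulins Fbln5 and Efemp2, and Emilin1. They were chosen by name as elastic fibre genes, 9 of the 54532 genes in the table, and all 9 exceeded the expression level needed for testing, a mean of 0.5 FPKM (fragments on a gene scaled to its exon length and to the sequencing depth of the lung). The lungs came from wild-type C57/BL6 pups, male or female according to the methods, that were operated on at P7 and collected 7 days later. The increased pulmonary blood flow (IncPBF) group, 5 lungs, had a fistula made with a needle between the abdominal aorta and the inferior vena cava. The sham group, 5 lungs, went through anesthesia and laparotomy without the puncture, and all pups were returned to their mother. The question was whether IncPBF alters gene expression in the lung while alveoli form. The labels give neither litter nor sex for single lungs, so the p-values measure the spread between these lungs.

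Elastic fibres let the lung recoil. Tropoelastin, the soluble product of Eln, is deposited on a scaffold of fibrillin microfibrils and crosslinked there by lysyl oxidases, with fibulins bringing the partners together. In the postnatal lung myofibroblasts lay down elastin at the tips of the growing alveolar septa, and smooth muscle cells and fibroblasts make it in vessel walls, airways and pleura.

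In IncPBF lungs 5 of the 9 genes were higher than in sham lungs and 0 were lower (limma, Benjamini-Hochberg adjusted p under 0.05 over 15388 genes). Across all genes tested, 16.1% were called higher and 16.2% lower. Fbn2, a fibrillin best known from fetal and growing tissue, changed most at 3.11-fold, followed by Efemp2 at 1.48-fold, Fbln5 at 1.35-fold, Emilin1 at 1.30-fold and Mfap2 at 1.28-fold. Eln, Fbn1, Mfap4 and Mfap5 were not called. At an unadjusted p under 0.05, 7 genes were higher and 0 lower, where 6640 of the 15388 genes passed in either direction. Limma-voom on recovered fragments gave 5 and 0, where 2482 of all genes were called higher and 2710 lower. The log2 fold change was above 0 for 8 of 9 genes, against 52.1% of all genes, with a median of 0.38 against 0.01.

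The groups also differed in sex-linked RNA. Xist, transcribed from the inactive X chromosome of females, measured 52.4 to 66.5 FPKM in IncPBF lungs 2 to 5 and at most 0.077 FPKM in IncPBF lung 1 and the 5 sham lungs. Ddx3y, on the Y chromosome, was at 18.6 FPKM in IncPBF lung 1 and 21.8 to 24.6 FPKM in sham lungs, with no more than 0.00926 FPKM in IncPBF lungs 2 to 5. Sex and surgery therefore cannot be told apart in 4 of the 5 IncPBF lungs, and each member is given below in 2 further ways: with log2 Xist as a covariate, and as IncPBF lung 1 against the 5 sham lungs, where the lone lung is assumed to vary like the others. In these fits the direction of all 9 genes was as in the full comparison, and only Fbn2 was called (1 of 9 in each, where 2.13% and 0.273% of all genes were called higher). IncPBF lung 1 by itself exceeded all 5 sham lungs for 6 of 9 genes (Fbn1, Fbn2, Mfap2, Fbln5, Efemp2 and Emilin1), a position held by 26.4% of all genes tested. It lay within the range of IncPBF lungs 2 to 5 for 8 of 9 members and for 65.6% of all genes.

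**Figure D1:**
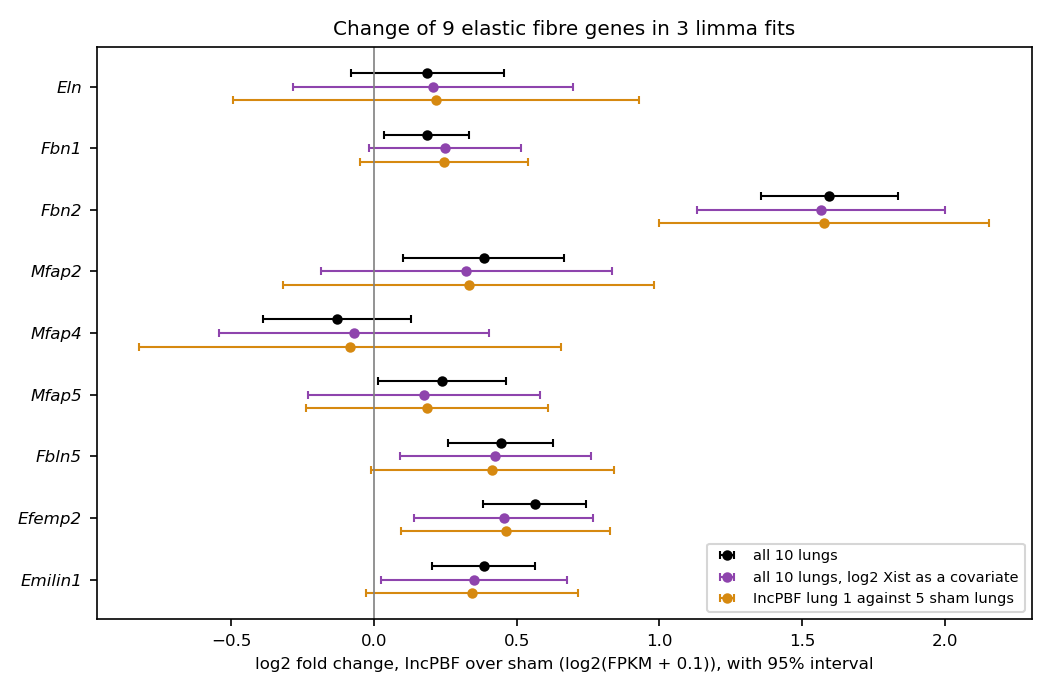
Log2 fold change (IncPBF over sham, log2(FPKM + 0.1)) with 95% interval for the 9 genes from limma in all 10 lungs (black), with log2 Xist as a covariate (purple) and with IncPBF lung 1 against the 5 sham lungs (orange). The estimate runs from 1.56 to 1.59 for Fbn2, from 0.45 to 0.56 for Efemp2 and from -0.13 to -0.07 for Mfap4, and the intervals are wider in the 2 fits that take Xist into account.

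Eln (ENSMUSG00000029675), at GRCm38 chr5:134702593-134747323 on the minus strand, encodes tropoelastin, the elastic core itself. Its level was 1979, 1969, 1779, 2007 and 1961 FPKM in IncPBF lungs 1 to 5, and 1387, 1750, 2061, 1500 and 1907 FPKM in sham lungs 1 to 5. The groups overlapped: sham lung 3 stood above every IncPBF lung, while sham lungs 1, 2 and 4 stood below all of them. The means were 1939 ± 91.2 and 1721 ± 279 FPKM (SD, n = 5 each), and the log2 fold change of 0.19 had a 95% interval of -0.08 to 0.45 (limma adjusted p = 0.271). A rise of more than 0.45 on the log2 scale thus lay outside this interval, and no change lay inside it. The estimate was 0.21 with Xist as a covariate and 0.22 for IncPBF lung 1. Gm30003, an antisense gene overlapping Eln, was at no more than 0.438 FPKM in any lung.

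The fibrillins, which polymerize into the microfibril backbone, diverged. Fbn2 (ENSMUSG00000024598, chromosome 18, minus strand) was at 5.35, 5.01, 5.70, 5.26 and 5.79 FPKM in IncPBF lungs 1 to 5. In sham lungs 1 to 5 it was at 1.30, 1.63, 1.99, 1.84 and 1.97 FPKM. Each IncPBF lung was at least at 5.01 FPKM and no sham lung exceeded 1.99 FPKM, with 952 to 1259 and 245 to 393 fragments per lung behind these values. The log2 fold change was 1.59 (SE 0.11, 95% interval 1.35 to 1.83, limma adjusted p = 6.7e-06), and 94 of the 15388 genes had a larger estimate, called or not. With Xist as a covariate it was 1.56 (adjusted p = 0.0032), and in IncPBF lung 1 against sham it was 1.58 (adjusted p = 0.0421).

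Fbn1 (ENSMUSG00000027204, chr2:125300594-125507993, minus strand), the fibrillin of adult tissue that is mutated in Marfan syndrome, was at 63.5, 63.1, 59.6, 53.9 and 64.7 FPKM in IncPBF lungs 1 to 5 and at 52.1, 52.6, 56.2, 48.5 and 58.7 FPKM in sham lungs 1 to 5. IncPBF lung 4 was within the sham range and the other 4 IncPBF lungs were above it. Its log2 fold change of 0.18 (SE 0.07, 95% interval 0.04 to 0.33) missed the threshold (limma adjusted p = 0.0573). The call was made without IncPBF lung 4 (adjusted p = 0.0259) and without sham lung 5 (adjusted p = 0.0377). With Xist as a covariate the estimate was 0.25, and 0.25 for IncPBF lung 1.

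The ratio of the fibrillins within a lung changed with Fbn2. Fbn2 over Fbn1 was 0.0893 ± 0.00763 in IncPBF lungs and 0.0326 ± 0.00493 in sham lungs (SD, n = 5 each), without overlap, a difference of 1.47 on the log2 scale (exact permutation test, 2-sided, p = 0.00794, the smallest this test can give with 5 lungs per group, and 0.0317 adjusted over 4 ratios). IncPBF lung 1 had a ratio of 0.0843, against at most 0.0379 in a sham lung. Fbn1 was the more abundant fibrillin in all 10 lungs.

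Of the 3 genes of microfibril associated proteins, Mfap2 was called and Mfap4 and Mfap5 were not. Mfap2 (ENSMUSG00000060572, chr4:141010418-141015984, plus strand), a small glycoprotein on fibrillin beads also called MAGP-1, was at 195.7, 193.2, 221, 213.5 and 193.2 FPKM in IncPBF lungs 1 to 5. In sham lungs 1 to 5 it was at 111.8, 163, 176, 145 and 195.6 FPKM. Sham lung 5 reached the IncPBF range and the other 4 sham lungs stayed below it. Its rise on the log2 scale was 0.38 (SE 0.13, 95% interval 0.10 to 0.67, limma adjusted p = 0.0408). This call did not hold when any 1 of 7 of the 10 lungs was left out (adjusted p 0.016 to 0.0869 over the 10 lungs), nor with Xist as a covariate (0.32, adjusted p = 0.465) or in IncPBF lung 1 (0.33, adjusted p = 0.587).

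Mfap5 (ENSMUSG00000030116, chr6:122505845-122529290, plus strand), the related MAGP-2, was at 19.9, 22.9, 17.4, 23.0 and 20.6 FPKM in IncPBF lungs 1 to 5 and at 14.5, 18.5, 20.9, 16.7 and 17.4 FPKM in sham lungs 1 to 5. The groups overlapped, with IncPBF lung 3 at the level of sham lung 5. A log2 fold change of 0.24 (95% interval 0.01 to 0.46) did not pass (limma adjusted p = 0.0987). It passed without IncPBF lung 3 (adjusted p = 0.0451) or without sham lung 3 (adjusted p = 0.0345). The estimate was 0.18 with Xist as a covariate (adjusted p = 0.634) and 0.19 in IncPBF lung 1 (adjusted p = 0.641). Mfap5 over Mfap2 differed by -0.14 on the log2 scale between the groups (exact permutation p = 0.317, 0.423 adjusted over 4 ratios).

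Mfap4 (ENSMUSG00000042436, chr11:61485431-61488900, plus strand), a fibrinogen-related protein that binds elastin and fibrillin, was at 2215, 2077, 2106, 2147 and 2182 FPKM in IncPBF lungs 1 to 5. In sham lungs 1 to 5 it was at 1961, 2692, 2191, 2212 and 2783 FPKM. It was the single member with a negative estimate: sham lungs 2 and 5 were above every IncPBF lung and sham lung 1 below all of them. The log2 fold change was -0.13 (95% interval -0.39 to 0.13, limma adjusted p = 0.432). With Xist as a covariate the estimate was -0.07 (adjusted p = 0.886), and in IncPBF lung 1 it was -0.08 (adjusted p = 0.917). The overlapping gene Mapk7 on the other strand was at 8.89 to 12.3 FPKM.

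**Figure D2:**
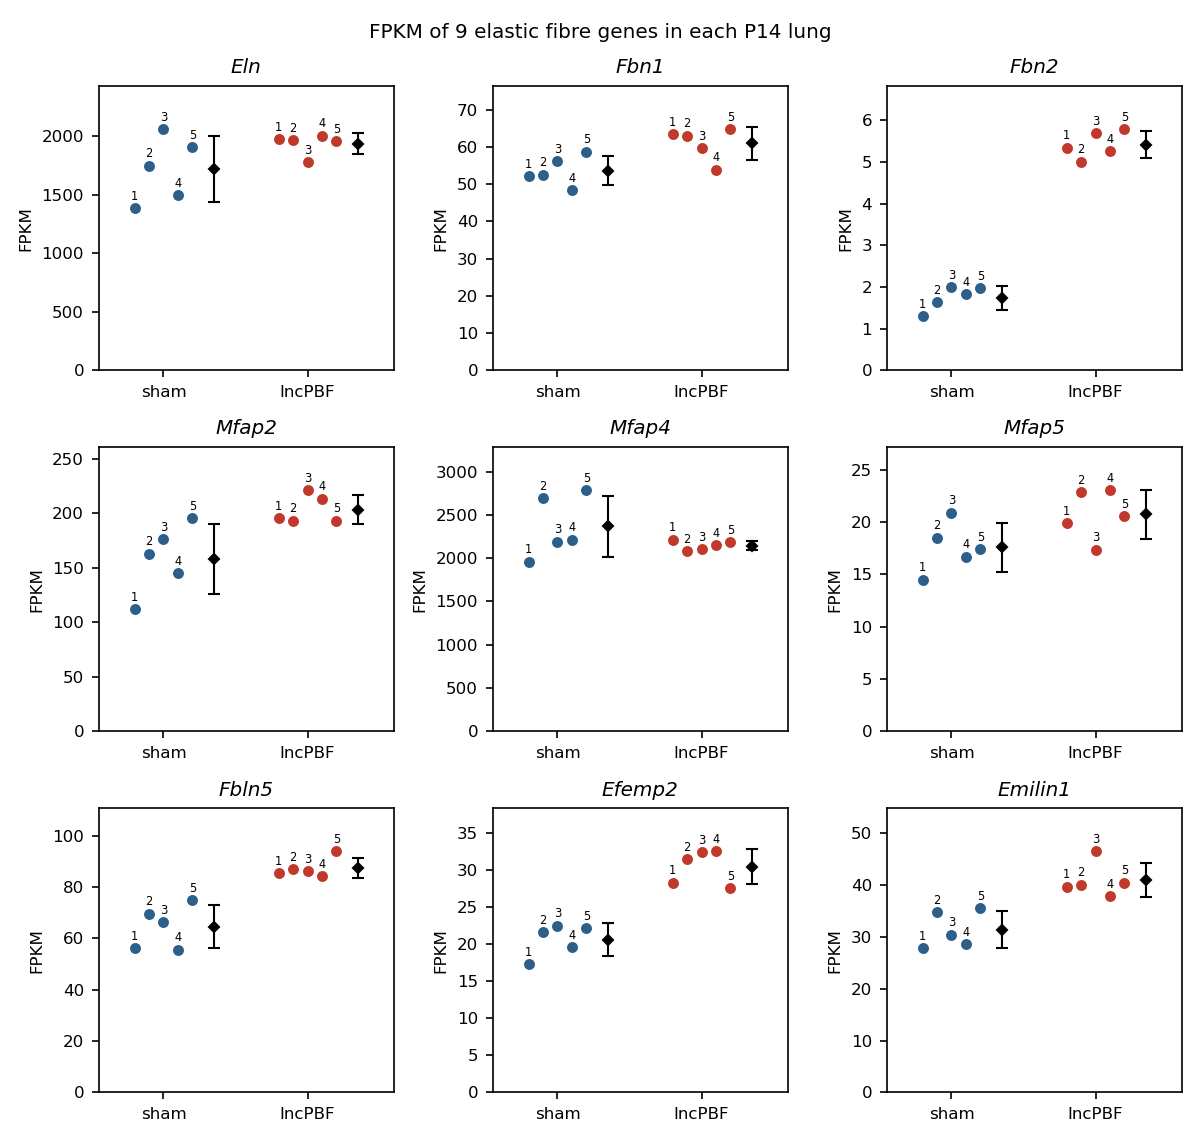
FPKM of each gene in each lung (y axes from 0), points numbered by lung, with mean and SD of 5 lungs as black diamonds and bars beside them. The IncPBF and sham points are fully apart for Fbn2, Fbln5, Efemp2 and Emilin1 and overlap for the other 5 genes.

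Transcripts of the 3 genes whose proteins assemble the fibre were all higher, with no overlap between groups. Fbln5 (ENSMUSG00000021186, chr12:101746565-101819055, minus strand), which tethers tropoelastin to microfibrils and cells, was at 85.5, 87.0, 86.1, 84.3 and 93.9 FPKM in IncPBF lungs 1 to 5, and at 56.3, 69.6, 66.3, 55.7 and 74.9 FPKM in sham lungs 1 to 5. Its log2 fold change was 0.44 (SE 0.08, 95% interval 0.26 to 0.63, limma adjusted p = 0.00242). It was 0.42 with Xist as a covariate (adjusted p = 0.142) and 0.41 in IncPBF lung 1 (adjusted p = 0.314).

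Efemp2 (ENSMUSG00000024909, chr19:5473973-5481853, plus strand), or fibulin-4, which brings lysyl oxidase to tropoelastin, was at 28.3, 31.5, 32.4, 32.5 and 27.5 FPKM in IncPBF lungs 1 to 5, and at 17.3, 21.6, 22.5, 19.6 and 22.1 FPKM in sham lungs 1 to 5. The lowest IncPBF lung, lung 5, was above the highest sham lung, lung 3. Efemp2 rose by 0.56 on the log2 scale (SE 0.08, 95% interval 0.38 to 0.74, limma adjusted p = 0.000534). With Xist as a covariate it was 0.45 (adjusted p = 0.1), and in IncPBF lung 1 it was 0.46 (adjusted p = 0.212). Efemp2 over Fbln5 differed by 0.12 on the log2 scale (exact permutation p = 0.198, 0.397 adjusted over 4 ratios), so a change in the balance of these fibulins was not detected.

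Emilin1 (ENSMUSG00000029163, chr5:30913402-30921277, plus strand), a glycoprotein at the interface of elastin and microfibrils that restrains TGF-beta processing, was at 39.7, 40.1, 46.5, 37.9 and 40.5 FPKM in IncPBF lungs 1 to 5 and at 27.9, 34.7, 30.4, 28.6 and 35.6 FPKM in sham lungs 1 to 5. The gap between the groups was narrow, from 35.6 to 37.9 FPKM. The log2 fold change was 0.38 (SE 0.08, 95% interval 0.20 to 0.56, limma adjusted p = 0.00475), 0.35 with Xist as a covariate (adjusted p = 0.208) and 0.34 in IncPBF lung 1 (adjusted p = 0.337). In total 4 of 9 members were higher without overlap, against 12% of all genes tested.

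Promoters of these 3 assembly genes are shown because the genes rose together without overlap. RefSeq promoters on GRCm38.p6, 250 bases before to 50 after a transcription start, were examined for 5 of the 9 members (Fbn1, Mfap2, Emilin1, Fbln5 and Efemp2). Promoters of Fbn2, the member that changed most, and of Eln, Mfap4 and Mfap5 were not examined. The motif matches below therefore say nothing about these genes. The start furthest upstream is printed, 5′ to 3′ on the gene's strand. The Emilin1 window lies wholly inside the gene coordinates given above. Its RefSeq start is therefore downstream of the gene start in those coordinates. The Fbln5 window lies wholly upstream of the Fbln5 coordinates, so that RefSeq start is upstream of the gene start. Capitals mark matches on either strand to 5 motifs searched: TATAAA (the TATA box, in 13.6% of 32851 promoters of this length), GGGCGG (the core of a GC box, 35.7%), CATTCC (TEAD type, 14.7%), CAGACA (SMAD type, 21%) and GACCACCCA (Gli type, 0.253%). No 2 of the motifs overlapped in the printed promoters, and a match on the other strand appears as its reverse complement.
Fbln5 chr12:101819070-101819369, minus strand: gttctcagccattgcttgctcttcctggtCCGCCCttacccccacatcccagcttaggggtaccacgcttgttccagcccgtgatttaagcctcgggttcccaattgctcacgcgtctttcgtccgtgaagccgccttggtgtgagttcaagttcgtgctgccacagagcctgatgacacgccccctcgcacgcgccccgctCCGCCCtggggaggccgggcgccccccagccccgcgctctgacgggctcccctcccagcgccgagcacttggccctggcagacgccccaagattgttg
Efemp2 chr19:5473696-5473995, plus strand: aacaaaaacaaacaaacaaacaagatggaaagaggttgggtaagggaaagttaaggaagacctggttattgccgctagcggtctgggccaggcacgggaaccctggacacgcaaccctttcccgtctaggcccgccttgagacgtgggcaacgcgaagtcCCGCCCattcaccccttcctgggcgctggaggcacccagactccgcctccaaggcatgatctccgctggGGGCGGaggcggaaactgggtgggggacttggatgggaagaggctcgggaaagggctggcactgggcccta
Emilin1 chr5:30913536-30913835, plus strand: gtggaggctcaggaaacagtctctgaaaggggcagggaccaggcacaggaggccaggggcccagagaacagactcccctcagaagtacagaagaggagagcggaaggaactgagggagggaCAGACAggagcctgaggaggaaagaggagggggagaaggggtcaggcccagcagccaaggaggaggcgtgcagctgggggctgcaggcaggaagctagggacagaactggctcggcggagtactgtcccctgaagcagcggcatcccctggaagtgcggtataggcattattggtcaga
Fbln5 and Efemp2 each held 2 matches to the GC box core, and Emilin1 held none of these but 1 to CAGACA. The TATA, TEAD and Gli type letters had no match in the 3 windows. Their GC content was 65.7%, 60.3% and 61.7%, against a median of 52.7% over all promoters. Other starts of Fbln5 and Efemp2 differed. Another Fbln5 window had 48.7% GC, 1 match to CAGACA and none to the GC box core. Other Efemp2 windows had 76% and 78.3% GC with 5 and 7 GC box cores. The window of Fbn1, which was not called, had 60.3% GC and 1 GC box core. For Mfap2, which was called, 1 window had 68% GC and 2 GC box cores. Another Mfap2 window had 52% GC, 1 match to CATTCC and 1 to CAGACA. These matches describe the letters in the windows.

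The elastin to fibrillin balance did not move detectably. Eln over Fbn1 was 32.0 ± 3.01 in IncPBF lungs and 32.0 ± 3.66 in sham lungs (SD, n = 5 each), a log2 difference of 0.0014 (exact permutation p = 1).

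**Figure D3:**
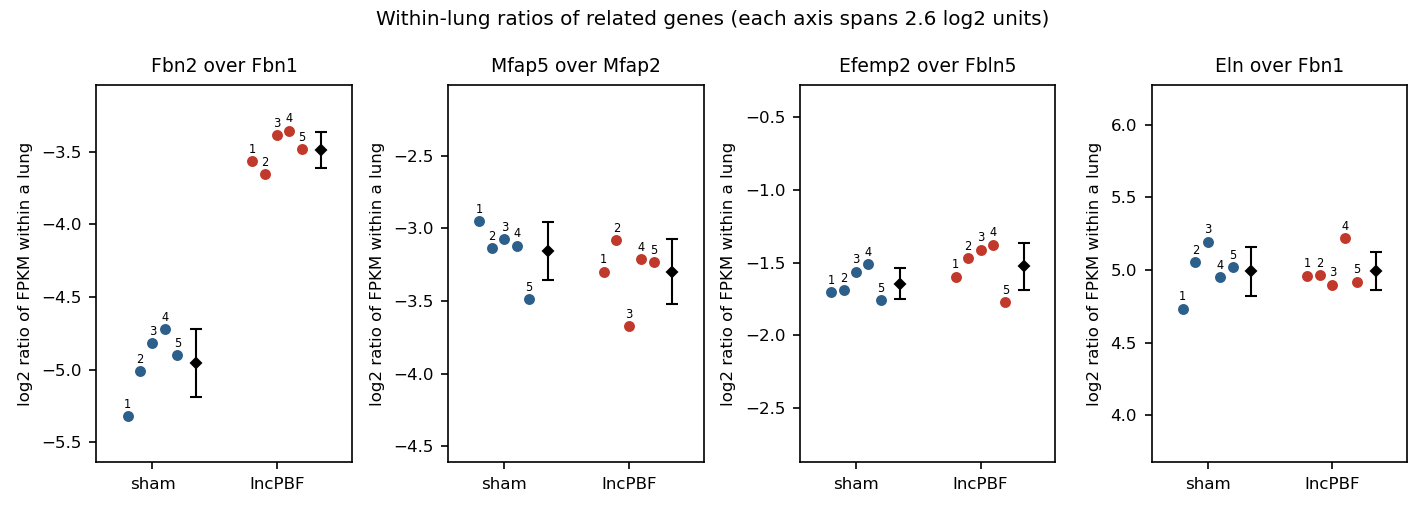
Log2 ratio of the FPKM of 2 related genes within each lung, points numbered by lung, with mean and SD of 5 lungs beside them; all 4 y axes span the same 2.6 log2 units. Fbn2 over Fbn1 separates the groups and the other 3 ratios overlap.

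By FPKM, the order of the levels was the same in all 10 lungs: Mfap4, Eln, Mfap2, Fbln5, Fbn1, Emilin1, Efemp2, Mfap5 and Fbn2. Over the 10 lungs the ranges of neighbours overlapped for Mfap4 and Eln, Fbln5 and Fbn1, Emilin1 and Efemp2, and Efemp2 and Mfap5. Mfap4 ranked 6 and Eln 9 among all genes by mean FPKM, and Fbn2 ranked 9501. The 9 genes made up 1.53% to 1.69% of all FPKM in IncPBF lungs and 1.34% to 1.72% in sham lungs. Of this sum Eln and Mfap4 held 42.8% and 47.3% in IncPBF lungs and 38.8% and 53.4% in sham lungs. The place of Mfap4 over Eln depends on the length used: the Eln exon union of 8098 bases is 2.10 times its longest transcript, and with longest transcripts as lengths Eln exceeded Mfap4 in all 10 lungs (means of 3617 against 2571 FPKM in sham). The place of Efemp2 over Mfap5 depends on it too. With longest transcripts the sham means were 25.4 FPKM for Mfap5 and 20.7 FPKM for Efemp2.

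Relative to its mean, each member varied more in sham than in IncPBF lungs. The coefficient of variation was larger in sham for 9 of 9 members, as for 66.1% of all genes tested. It was 16.2% against 4.70% for Eln, 20.1% against 6.43% for Mfap2 and 14.9% against 2.59% for Mfap4, but nearly equal for Fbn1 (7.39% against 7.19%) and close for Mfap5 (13.4% against 11.3%). By SD in FPKM, Fbn1, Fbn2 and Efemp2 varied more in IncPBF lungs and the other 6 members in sham lungs. Sham lung 1 was the lowest sham lung for 7 of 9 members and sham lung 4 for Fbn1 and Fbln5. Sham lung 5 was the highest for 5 members and sham lung 3 for the other 4.

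Within groups the members tended to vary together across the same 10 libraries. After subtraction of each group mean, 35 of 36 pairs correlated above 0 (Pearson r over 10 lungs, as a description), with a median of 0.54, and 22 pairs were above 0.5. The extremes were Mfap2 with Efemp2 at 0.87 and Mfap5 with Emilin1 at -0.05. Eln correlated most with Mfap5 (0.81) and Mfap2 (0.78). The points of each pair share the depth and composition of their library. The same count over pairs of other genes was not computed, so this tendency is not shown to be particular to the members.

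For each member the 3 genes with the highest r were picked from 8180 other genes with a mean of at least 5 FPKM. With so many genes and 10 lungs, high values of r arise by selection alone, and their level by chance was not tested. Genes closest to Eln in this measure were Parm1 (0.95), Thbs2 (0.93) and Nnmt (0.90). Those closest to Fbn2 were Itpa (0.93), Nnat (0.92) and Egfem1 (0.91), and to Fbn1 Plxnc1, Atp8b2 and Ptpn9 (0.94 to 0.97). For Mfap2 they were Ubald1, Agt and P3h3 (0.95 to 0.96), for Mfap4 Akr1b3, Cpxm1 and Slc41a3 (0.93 to 0.97) and for Mfap5 Fstl1, Zmat5 and Ecm2 (0.90 to 0.92). For Fbln5 they were Sulf1 (0.99), Palld and Smo, for Efemp2 Dact3, Cd248 and Rhoc (0.93 to 0.96) and for Emilin1 Homer3, Mfng and Llgl1 (0.94 to 0.96).

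Genes that process, bind or degrade elastic fibres moved in both directions. Of 68 listed genes 53 were tested, 14 were higher and 17 lower, and 32.3% of all genes tested were called in either direction. With Xist as a covariate 4 of these genes were called (Adamtsl2, Adamtsl4, Emilin2 and Itga4), and in IncPBF lung 1 against sham only Adamtsl2 was.

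All 5 lysyl oxidases, the enzymes that crosslink elastin and collagen, were called. Loxl2 rose from 27.6 to 60.2 FPKM (log2 fold change 1.15, limma adjusted p = 0.000197), Loxl1, the oxidase that works with Fbln5 and had the highest mean of the list over all 10 lungs, from 87.9 to 127 FPKM (0.54) and Loxl3 from 6.11 to 8.17 FPKM (0.41). Lox fell from 88.2 to 66.9 FPKM (-0.40, limma adjusted p = 0.0128) and Loxl4, at a low level, from 1.09 to 0.509 FPKM (-0.94). In each of the 5 the groups did not overlap. Across the 15388 genes tested, 1845 were higher without overlap. The exact permutation test per gene called 1845 of them higher and 1718 lower at adjusted p under 0.05.

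Of the 4 latent TGF-beta binding proteins, relatives of the fibrillins, Ltbp2 rose from 91.8 to 148 FPKM (log2 fold change 0.70) and Ltbp4, a partner of Fbln5 in elastic fibre assembly, fell from 125 to 90.1 FPKM (-0.47). Among 5 other fibulins and hemicentins tested, Fbln7 (0.97, at 0.413 and 0.864 FPKM) and Hmcn1 (0.45, the most abundant of the list over all 10 lungs, though Efemp1 was at 23.9 and Hmcn1 at 19.3 FPKM in sham) rose and Efemp1, the close relative of Efemp2, fell by 0.73. Of 3 other EMILIN family genes, Emilin2 rose (0.63) and Mmrn2, the most abundant and an endothelial member, fell by 0.31.

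The ADAMTS and ADAMTS-like genes, several of which bind fibrillin microfibrils, were called lower in 6 of 9 cases and higher in 1. Adamtsl2 fell from 55.1 to 18.4 FPKM (log2 fold change -1.57, SE 0.10), Adamtsl4 from 16.0 to 8.52 FPKM (-0.89) and Adamts17 from 42.9 to 26.4 FPKM (-0.68). Adamtsl2 was at 16.3 to 21.3 FPKM in IncPBF lungs and at 48.4 to 65.6 FPKM in sham lungs, and at 19.3 FPKM in IncPBF lung 1. With Xist as a covariate its log2 fold change was -1.48 (limma adjusted p = 0.00211), and in IncPBF lung 1 it was -1.50 (limma adjusted p = 0.0224). Adamts10, which binds Fbn1 and was the most abundant of the list, rose (0.35).

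Of 7 proteases tested that can cut elastic fibre proteins or activate such enzymes, 3 were higher: Ctsk (log2 fold change 0.54), Mmp14 (0.53) and Mmp9 (0.44). The most abundant, Mmp2, was at 140 and 128 FPKM and was not called. Elane, Prtn3, Ctsg and Cela1 were below the level for testing and Mmp7 was listed at 0 in every lung. Of 8 inhibitors tested, Timp1 was higher (0.60) and 4 were lower, led by Timp3, from 75.0 to 31.3 FPKM (-1.20), Reck (-0.50) and Slpi (-0.43), with Cst3 the most abundant and not called (-0.09). Of 12 elastin receptor and integrin genes, Itga4 (0.52) and Itgav (0.21) were higher and Itga8 (-0.67) and Itgb5 (-0.34) lower, and Itgb1, the most abundant, was at 352 FPKM in both groups.

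**Figure D4:**
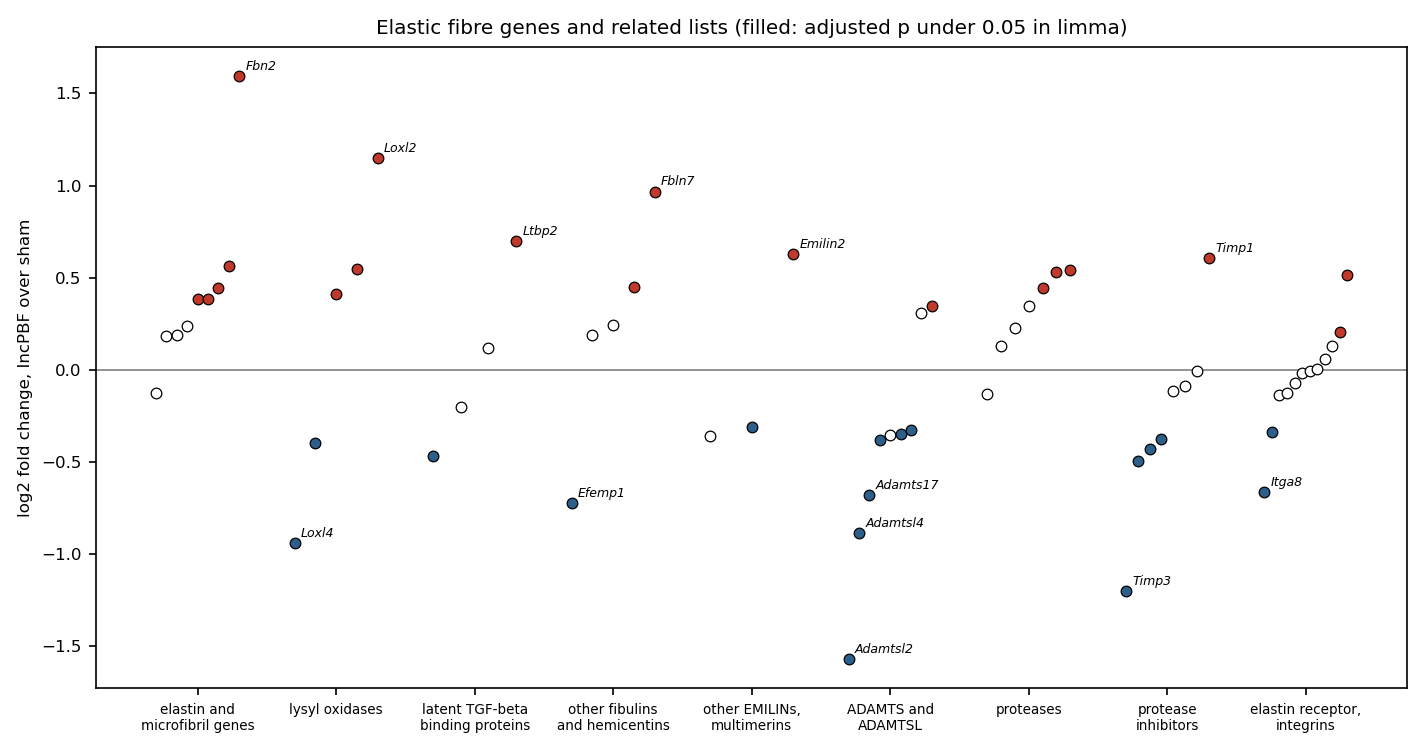
Log2 fold change (IncPBF over sham) of the 9 elastic fibre genes and of tested genes in 8 related lists, 1 point per gene; filled points had a limma adjusted p under 0.05 (red higher, blue lower), and names are given for called genes beyond 0.6. Fbn2 is the highest point at 1.59 and Adamtsl2 the lowest at -1.57.

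In bulk tissue a change in the number of a cell type and a change in RNA per cell cannot be told apart. Beside the counts of called markers below, 16.1% of all genes tested were called higher and 16.2% lower. The tissue label was borne out by its epithelial markers. Their sum was 11501 to 14101 FPKM in IncPBF and 14027 to 17208 FPKM in sham lungs, with 5 of 6 markers lower. Sftpc, the marker that was not called, made up most of this sum (means of 10428 FPKM in IncPBF and 12095 FPKM in sham lungs). Alveolar myofibroblast markers summed to 375 to 435 FPKM in IncPBF lungs and 187 to 247 FPKM in sham lungs, 5 of 8 higher. Tgfbi carried most of this gap (means of 232 and 62.6 FPKM), and the other 7 together were at 177 to 182 against 143 to 169 FPKM. Pdgfra, a receptor also on this list, was lower (-1.36), and Hhip was lower too (-0.29). Smooth muscle markers summed to 346 to 648 against 138 to 274 FPKM, 5 of 8 higher and 0 lower, Acta2 among them at 1.57. Fibroblast markers were higher in 3 and lower in 2 of 8 (1317 to 1552 against 1702 to 2285 FPKM). Inmt carried most of the fall in this sum (means of 64.8 FPKM in IncPBF and 502 FPKM in sham lungs). Npnt was the other lower marker, and Col1a1, Col1a2 and Wnt2 were higher. Adventitial fibroblast markers were higher in 3 and lower in 1 of 8 (521 to 619 against 479 to 575 FPKM). Endothelial markers were higher in 1 and lower in 4 of 8 (598 to 672 against 654 to 885 FPKM), and mesothelial markers lower in 5 of 5 tested (91.8 to 117 against 132 to 206 FPKM). Chondrocyte markers were near 0, with all 8 together at 0.783 to 0.964 and 0.808 to 1.05 FPKM. Cardiomyocyte markers, called in 0 of 6, summed to 33.6 to 101.0 against 8.71 to 47.3 FPKM, and leukocyte markers, called in 0 of 7, to 44.7 to 53.5 against 41.8 to 51.3 FPKM. No marker of these lists was at 0 in every lung. The part of these lists in the changes of the 9 genes was not tested.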

How the data were processed

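Total RNA of 10 P14 lungs was sequenced as NEBNext libraries on an Illumina NovaSeq instrument, after isolation with Trizol (labels) or a column kit (methods). The authors deposited gene FPKM in 1 table, with the exon length of each gene. The submitters' processing notes name Bowtie 0.12.2 and GRCm38, without a role, and the counting tool is not given in the sources used here. Coordinates were identical to GENCODE M21 for 98.3% of shared genes, but not for Fbn2 and Efemp2, whose lengths in the table also differ from it. Columns of IncPBF lungs are abbreviated differently from their titles and were taken as IncPBF because the remaining 5 are named sham, with lung numbers from the column names. FPKM times length gave whole fragments within 0.1 for 100% of values. These summed to 16103423 to 20318525 per IncPBF lung and 18171494 to 19400575 per sham lung. No pair of lungs of a group was alike within sampling noise (at least 6.40 for chi-square per gene).

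Tests used log2(FPKM + 0.1) of genes averaging 0.5 FPKM or more, a scale that understates changes of low genes, with limma 3.58.1 (lmFit, eBayes with trend) in R 4.3.3, without covariates. The script was tested on simulated data. Ratios were compared by 2-sided exact permutation. Figures used Python 3.11.15 and matplotlib 3.10.9. The alternatives were the pseudocount (1 or 0.01), the filter (1 or none), the scaling (equal total, median centring, quantile), eBayes without trend, a permutation test per gene, limma-voom on the fragments, Xist as a covariate, lungs without Xist RNA (under 1 FPKM), the replicate block and each lung left out. The length of the longest transcript was chosen after the data were seen.

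The members, lists and markers were chosen with earlier results of these data known. Named are all members, up to 3 higher and 3 lower called genes with the largest change and the most abundant gene of each related list, the 3 genes most like each member, and Xist and Ddx3y. Genes named beyond these (untested proteases, single markers, and genes called with Xist as a covariate) were chosen after their values were seen.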

Additional observations from a re-analysis of the deposited data

Results flagged for a closer look

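Of 26 groups of 5 values examined (each member and each ratio per group), 3 had a lung whose gap to the nearest other lung passed Dixon's 95% critical value relative to the group's range, where chance gives about 1 group in 20. Eln was lowest in IncPBF lung 3 at 1779 FPKM, next to 1961 FPKM. Without this lung the groups still overlapped. Fbln5 was highest in IncPBF lung 5 at 93.9 FPKM, next to 87.0 FPKM. The log2 ratio of Eln over Fbn1 was highest in IncPBF lung 4 at 5.22, next to 4.96, the lung with the lowest Fbn1 of its group.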

How the results depend on the processing

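Across 23 alternatives no member's log2 fold change turned, and 182 of 207 kept their side of the threshold. The number of members called higher fell to 1 with Xist as a covariate and to 1 in lungs without Xist RNA, and related list genes called fell from 31 to 4 and 1. Leaving out 1 lung gave 4 to 6 members and 25 to 32 list genes. Fbn2 was called under all 23, and Fbln5, Efemp2 and Emilin1 under all but the 2 Xist alternatives. Mfap2 lost its call in 12 and Fbn1 gained it in 5, including an equal total per lung (adjusted p = 0.0355) and the replicate block (adjusted p = 0.0297). Lung numbers did not pair the samples (same-numbered correlations of -0.0675 to 0.0854, own number the best match in 2 of 5), and the replicate block gave 6 members called higher and 2390 higher and 2482 lower genes, against 2480 and 2490. The equal total gave 2921 higher and 1960 lower genes, shifting the median of all genes from 0.01 to 0.05 on the log2 scale.

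The log2 difference in Fbn2 over Fbn1 was 1.37 to 1.52 with a lung left out, 1.05 with a pseudocount of 1 and 1.47 under the replicate block, where an exact sign-flip test cannot go below p = 0.0625. That of Eln over Fbn1 ran from -0.0629 to 0.0524 with a lung left out, turning negative without IncPBF lung 4 (-0.0549), sham lung 1 (-0.0629) or sham lung 4 (-0.00864), and was -0.0294 in lungs without Xist RNA. The cause was not tested. The mean log2 ratio of Eln over Mfap4 turned from -0.30 to 0.65 with longest transcripts as lengths, by construction. In both Xist alternatives the comparison rests on 1 IncPBF lung with the sex-linked RNA of the sham lungs.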
